A study of Mus musculus with 4 samples.

Results

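Toll-like receptors are membrane proteins that recognise molecules of microbes and of damaged cells. The 10 genes described here are the mouse receptors Tlr1, Tlr2, Tlr3, Tlr5, Tlr6, Tlr7, Tlr8, Tlr9 and Tlr13, with Unc93b1, the chaperone that carries the nucleic acid sensors from the endoplasmic reticulum to endosomes. They were chosen by gene symbol, as the family without Tlr4, and make up 10 of the 30142 genes that had a probe set of their own. The choice was made with earlier results of these arrays known, among them the value of Tlr8, so the differences are a description and no independent evidence. The rule takes the probe set with the highest mean over the 4 arrays. Each of the genes had 1 probe set, so the rule left no choice among probe sets.

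Signals came from 4 Affymetrix whole-transcript arrays of lineage-negative, c-Kit-positive (LK) cells, a marrow fraction rich in stem and progenitor cells, of NOD mice, a strain that develops autoimmune diabetes. On 2 arrays, called Combo in the labels, the cells had spent 4 h at 37 °C in StemSpan medium with dmPGE2 (10 µM), a stable analog of prostaglandin E2, and dexamethasone (10 µM), a synthetic glucocorticoid. On the other 2 the cells had spent the same time with the vehicle DMSO. No array carried 1 drug alone, all cells came from a diabetes-prone strain, and the sources used here do not say whether the biological duplicates came from separate mice, nor the age or sex of the mice, so p-values measure the spread between these samples. The question is which transcripts differ after exposure to both drugs.

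Receptors at the cell surface bind lipids and proteins of microbes, and those in endosomes bind RNA or DNA. Ligand binding recruits the adaptors Myd88 or Ticam1, which switch on NF-kB, MAP kinases and interferon regulatory factors. Blood progenitors express some of these receptors and can answer microbial products directly, and the receptors are more abundant on mature myeloid cells.

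Values are log2 signals after RMA (background correction, normalization between arrays and summary per probe set), and differences are Combo minus vehicle. Because each probe set binds with its own efficiency, levels of different genes are not compared. Arrays have no read depth, and precision is limited by having 2 of them per group. Of 23 probe sets designed to measure background, the highest reached 5.55 on vehicle 2 and 5.24 to 5.35 on the other arrays. Their means per array were 3.07 to 3.16. A signal at or below 5.55 on any array was counted as within the background range, a strict limit, as it may not differ from background. The vehicle means of 5 of the 10 genes lay there (Tlr3, Tlr5, Tlr6, Tlr8 and Tlr13), and so did the Combo means of 3 (Tlr3, Tlr5 and Tlr9). Tlr5 lay there on every array. RMA compresses dim signals, so the folds of these genes may be understated. The same holds for genes named below with a group mean at or below 5.55, such as Cd180 with Combo. Cxcl2, Ptgs2, Socs1 and Ccr1 were as dim with vehicle. Array medians over all features ran from 4.43 to 4.44 for Combo and from 4.36 to 4.40 for vehicle. The LK markers were present, with Kit at 10.51 and 9.62 on the Combo arrays against 10.18 and 10.32 on the vehicle arrays. The T cell marker Cd3e (3.72 to 4.08), the B cell marker Ms4a1 (3.65 to 3.86) and the neutrophil marker Ly6g (4.51 to 5.10) lay within the background range on all arrays. Other markers of the same lists were above it on all arrays, among them the neutrophil gene S100a8 (13.45 to 15.02), the cytotoxic granule gene Nkg7 (12.51 to 13.03) and the B cell gene Cd79b (5.99 to 6.57).

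**Figure D1:**
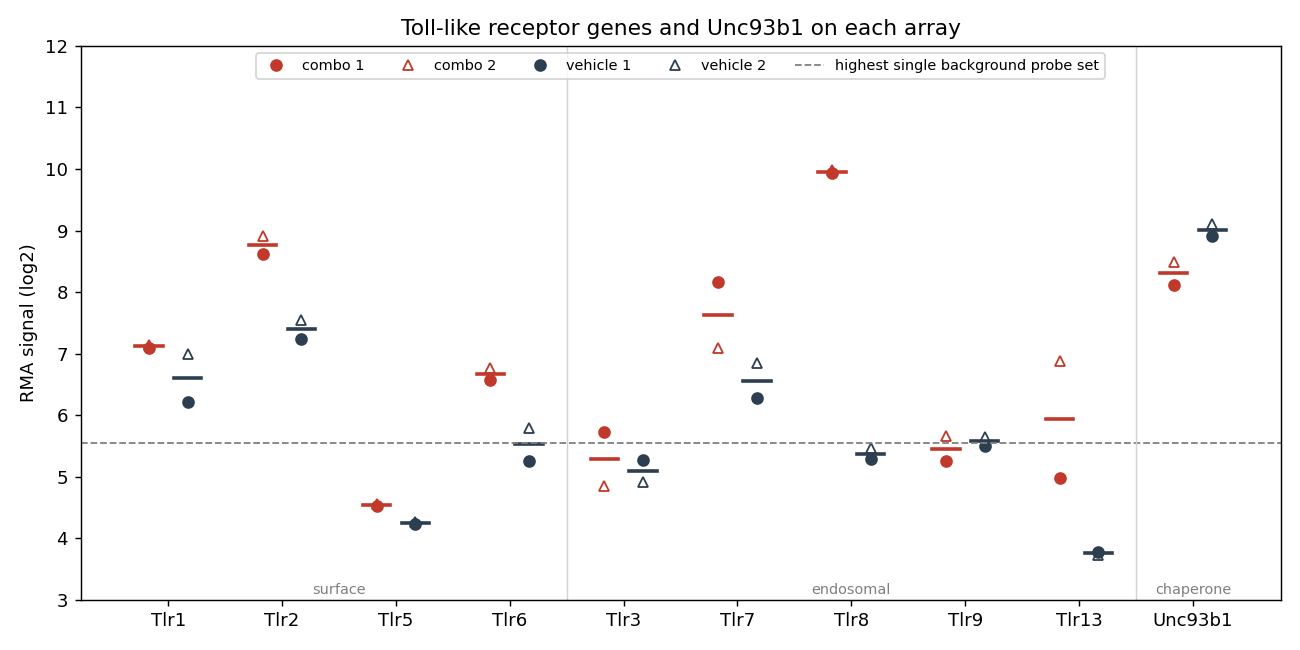
RMA signal (log2) of the 9 receptor genes and Unc93b1 on each array, with Combo left of vehicle for every gene. Filled circles are replicate 1, open triangles replicate 2, short bars the group means, and the dashed line the highest single background probe set (5.55). Tlr8 stood at 9.94 and 9.98 on the Combo arrays and below the dashed line on both vehicle arrays.

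Tlr8 differed most among the members, and Unc93b1 was the only one with both Combo arrays below both vehicle arrays. With limma's moderated test and Benjamini-Hochberg adjustment over all 65956 features, Tlr8 passed 0.05 and the other 9 genes did not. It was the only gene of 30142 to pass (0.00332%). At an unadjusted limma p under 0.05, 4 members were higher with Combo (Tlr2, Tlr6, Tlr8 and Tlr13), a class that held 2.66% of all genes, and 1 was lower (Unc93b1), a class that held 2.65%. Both Combo arrays lay above both vehicle arrays for 7 members, against 19.7% of all genes, and below them for 1, against 15.4%. Since the members were chosen with these results known, nothing is read from how the counts and the shares compare. The median difference over the members was 0.79, beside 0.01 over all genes, and it was 0.52 over the members without Tlr8. Taken within a replicate number, it was 1.05 for number 1 and 0.27 for number 2. In RNA of mixed cells, a change in the number of cells that carry a transcript and a change in transcript per cell cannot be told apart.

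Among the surface receptors, Tlr2 and its partner Tlr6 had the larger differences. TLR2 works as a dimer, with TLR1 for triacylated and with TLR6 for diacylated lipopeptides of bacteria. Tlr2 was at 8.62 and 8.92 on the Combo arrays, against 7.24 and 7.54 on the vehicle arrays. The groups did not overlap and lay 1.08 apart at their nearest arrays. The difference was 1.38 (SE 0.19, limma 95% interval 0.88 to 1.87), or 2.59-fold, with a limma adjusted p of 0.36. The first replicates differed by 1.38 and the second by 1.37.

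Tlr6 was at 6.58 and 6.76 on the Combo arrays, against 5.25 and 5.80 on the vehicle arrays, of which the lower lay within the background range. Its groups did not overlap, and the difference of 1.15 (SE 0.23, interval 0.55 to 1.75) was 2.21-fold (limma adjusted p = 0.585). Tlr1, which lies next to Tlr6 on chromosome 5, was at 7.09 and 7.14 on the Combo arrays, against 6.21 and 6.99 on the vehicle arrays. The second vehicle array came within 0.11 of the Combo arrays, and the difference, 0.52 (SE 0.29, interval -0.23 to 1.28, limma adjusted p = 0.94), was smaller than the distance between the vehicle arrays (0.78). Of the partners of TLR2, Tlr1 thus differed by 0.89 in number 1 and 0.16 in number 2, while Tlr6 differed by 1.33 and 0.97. The gene on the far side of Tlr6, Fam114a1, was at 5.94 and 6.09 on the Combo arrays and 5.60 and 5.58 on the vehicle arrays, and Klf3, on the far side of Tlr1, differed by -0.06. Both were picked for their place.

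Tlr5, the receptor for flagellin, was at 4.53 and 4.56 on the Combo arrays, against 4.22 and 4.27 on the vehicle arrays. The groups did not overlap and the arrays of each group were 0.04 apart, yet every array was within the background range. The difference was 0.30 (SE 0.13, interval -0.03 to 0.63, limma adjusted p = 0.91).

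The endosomal RNA sensor Tlr8 ranked 9 of the 30142 genes by upward difference. In humans TLR8 senses single-stranded RNA and its breakdown products, and the mouse receptor is known to answer fewer of these ligands. Tlr8 was at 9.94 and 9.98 on the Combo arrays, against 5.28 and 5.47 on the vehicle arrays. The Combo arrays agreed within 0.04, and the nearest arrays of the groups were 4.47 apart. It rose by 4.58 (SE 0.14, interval 4.22 to 4.95), or 24.0-fold, with a limma adjusted p of 0.041. Both vehicle signals lay within the background range, so the fold may be understated. The call was lost when any 1 array was left out, with a limma adjusted p of 0.14 without Combo 1, 0.28 without Combo 2, 0.69 without vehicle 1 and 0.50 without vehicle 2, while the difference stayed between 4.49 and 4.68. On all arrays it was also lost with an intensity trend (0.083), with dim features filtered at the median (0.051) or the 25th percentile (0.052), after a second quantile normalization (0.067) and with control rows kept (0.18).

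Tlr7, a sensor of single-stranded RNA in mouse and human, lies next to Tlr8 on the X chromosome. It was at 8.16 and 7.09 on the Combo arrays, against 6.27 and 6.85 on the vehicle arrays. The groups did not overlap, but Combo 2 was only 0.24 above vehicle 2, while Combo 1 was 1.89 above vehicle 1. The difference was 1.06 (SE 0.42, interval -0.05 to 2.17), or 2.09-fold, with a limma adjusted p of 0.90. The genes beyond the pair were picked for their place: Tmsb4x, on the side of Tlr8, differed by 0.02 and Prps2, on the side of Tlr7, by -0.44 (limma adjusted p = 0.85). The rise of Tlr8 was thus measured between neighbours with differences of 0.02 and 1.06.

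Tlr13, which in the mouse recognises a stretch of bacterial ribosomal RNA and has no counterpart in humans, is also on the X chromosome. It was at 4.98 and 6.89 on the Combo arrays, against 3.78 and 3.73 on the vehicle arrays. The groups did not overlap, the vehicle arrays were within the background range, and so was Combo 1. The Combo arrays were 1.90 apart. The difference of 2.18 (SE 0.64, interval 0.49 to 3.87), or 4.54-fold, had a limma adjusted p of 0.81. It was 1.21 in number 1 and 3.15 in number 2.

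Tlr3, the sensor of RNA duplexes, and Tlr9, the sensor of unmethylated CpG DNA, had overlapping groups. Tlr3 was at 5.72 and 4.85 on the Combo arrays, against 5.27 and 4.92 on the vehicle arrays, a difference of 0.19 (interval -0.69 to 1.08, limma adjusted p = 0.98). Tlr9 was at 5.25 and 5.66 on the Combo arrays, against 5.51 and 5.64 on the vehicle arrays, a difference of -0.12 (interval -0.62 to 0.38, limma adjusted p = 0.98). Both differences were smaller than the distance between the Combo arrays of the same gene, 0.87 for Tlr3 and 0.42 for Tlr9. Of these 8 signals, 3 were above the background range, Combo 1 for Tlr3 and the arrays numbered 2 for Tlr9, and the highest was 5.72.

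Unc93b1, the carrier of the nucleic acid sensors, was at 8.12 and 8.49 on the Combo arrays, against 8.91 and 9.10 on the vehicle arrays. The groups did not overlap and were 0.42 apart at their nearest arrays. The difference was -0.70 (SE 0.18, interval -1.19 to -0.21), which is 1.62-fold lower with Combo, and the limma adjusted p was 0.79. The unadjusted limma p was 0.015 on all arrays. It was 0.057 without Combo 1 and 0.076 without vehicle 2, where the difference was -0.52 and -0.60. Of all genes 1.15% had a lower difference.

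**Figure D2:**
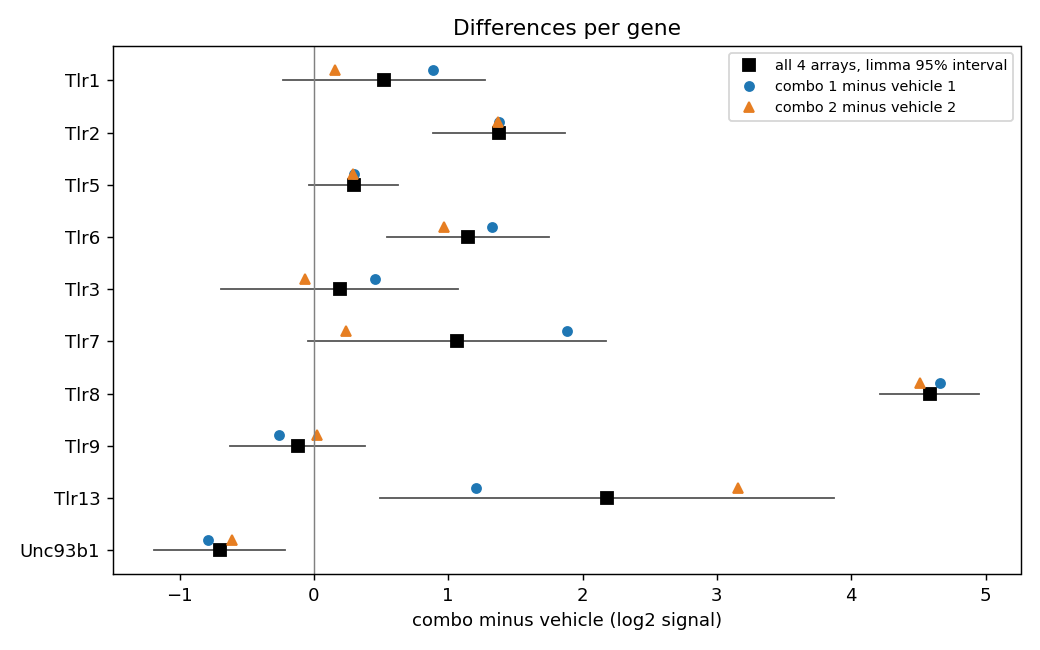
Difference between Combo and vehicle (log2 signal) for each gene. Squares with lines are limma's estimate and 95% interval over all 4 arrays, circles the difference within replicate number 1 and triangles that within number 2. For Tlr2 and Tlr5 the values of both numbers nearly coincided. They were 4.66 and 4.51 for Tlr8 and -0.79 and -0.61 for Unc93b1. For Tlr7 and Tlr13 they were 1.89 and 0.24, and 1.21 and 3.15.

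**Figure D3:**
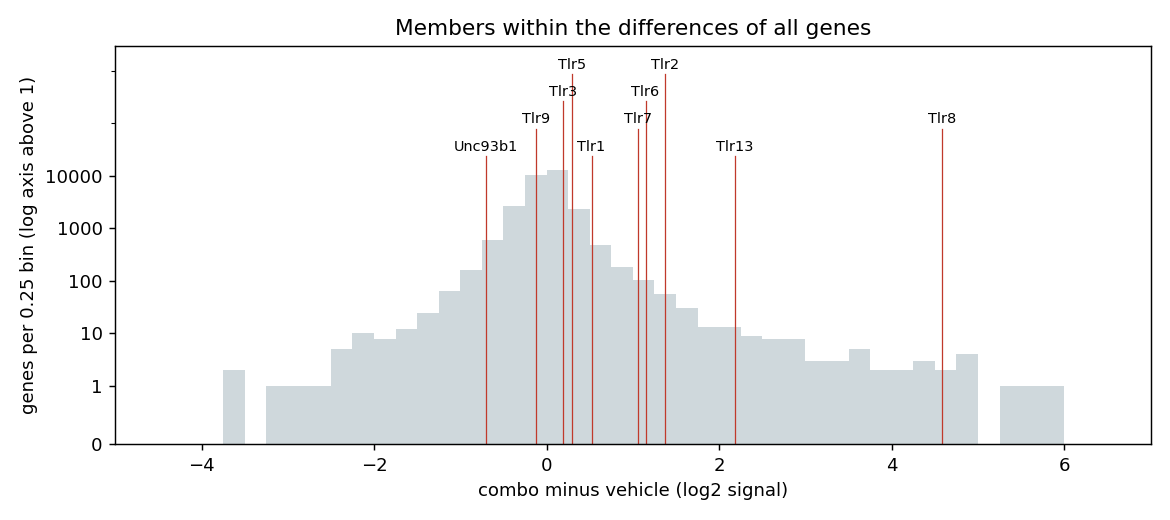
Number of genes per bin of the difference between Combo and vehicle (log2 signal, grey bars, log axis above 1) for 30142 genes, with red lines at the members. Tlr8 stood at 4.58 in the sparse upper tail, Tlr13, Tlr2, Tlr6 and Tlr7 above 1, and Unc93b1 at -0.70.

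The promoter sequences of 8 of the 10 members were matched in RefSeq (GRCm38.p6), all but those of Tlr7 and Unc93b1, in 10 windows because Tlr1 and Tlr6 have more than 1 listed start. Shown are the 250 bases before the start of the members with an unadjusted limma p under 0.05 and higher signals with Combo, so that sequence can be read beside the values. They are 5′ to 3′ on the gene's strand. Capitals mark matches, on either strand, to any of 8 searched motifs: the glucocorticoid response element (the arm AGAACA, any 3 bases, then TGTTCT) and its single arm AGAACA, the cAMP response element TGACGTCA and its arm TGACG, a loose C/EBP motif TTNNGNAA, the PU.1 core GAGGAAG, the interferon response core (GAAA, any 2 bases, GAAA) and the AP-1 element TGANTCA. The single arms also lie within the full elements.
Tlr8, chrX:167264330-167264579, minus strand: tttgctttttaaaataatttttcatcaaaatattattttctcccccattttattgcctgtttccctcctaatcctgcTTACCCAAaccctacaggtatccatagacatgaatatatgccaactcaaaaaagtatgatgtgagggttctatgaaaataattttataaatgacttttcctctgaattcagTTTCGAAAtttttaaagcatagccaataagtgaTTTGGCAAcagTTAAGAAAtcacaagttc
Tlr13, chrX:106143025-106143274, plus strand: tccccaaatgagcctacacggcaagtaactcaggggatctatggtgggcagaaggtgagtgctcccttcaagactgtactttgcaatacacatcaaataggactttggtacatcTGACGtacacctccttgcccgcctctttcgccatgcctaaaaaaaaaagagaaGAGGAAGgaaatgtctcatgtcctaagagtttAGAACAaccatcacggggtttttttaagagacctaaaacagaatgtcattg
Tlr2, chr3:83841609-83841858, minus strand: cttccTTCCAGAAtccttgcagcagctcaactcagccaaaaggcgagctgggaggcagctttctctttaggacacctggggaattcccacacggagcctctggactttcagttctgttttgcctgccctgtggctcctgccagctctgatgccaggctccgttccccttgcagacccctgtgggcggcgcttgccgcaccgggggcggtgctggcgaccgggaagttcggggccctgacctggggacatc
Tlr6 first window, chr5:64959167-64959416, minus strand: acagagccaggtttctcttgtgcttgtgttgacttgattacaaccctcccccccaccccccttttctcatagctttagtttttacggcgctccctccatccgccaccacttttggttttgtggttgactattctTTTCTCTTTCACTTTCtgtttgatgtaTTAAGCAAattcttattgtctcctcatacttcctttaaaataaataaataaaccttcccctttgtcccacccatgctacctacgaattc
Tlr6 second window, chr5:64960049-64960298, minus strand: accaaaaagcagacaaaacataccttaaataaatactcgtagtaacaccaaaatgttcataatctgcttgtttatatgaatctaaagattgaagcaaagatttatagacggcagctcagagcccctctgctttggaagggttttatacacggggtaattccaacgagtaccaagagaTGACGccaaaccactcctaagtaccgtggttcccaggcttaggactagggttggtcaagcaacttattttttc

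The Tlr8 window held 4 matches to the C/EBP motif, which start 173, 62, 29 and 18 bases before the start, and no match to the other motifs. C/EBP factors drive myeloid gene expression. Among 32851 promoter windows of the same length 36.8% held at least 1 such match and 0.591% held 4 or more. Repeated matches were counted over all windows for this motif alone, out of the 8 searched, so the second share is a description and no independent evidence. The Tlr8 window is poor in G and C (31.2%, against a median of 52.4% over all windows and 39.2% over those with 4 or more matches), and the motif is made mostly of A and T. Tlr2 had 1 such match, at 245 bases before the start, and the first Tlr6 window had 1 at 89. The Tlr3 window had 2. In all, 4 of the 10 member windows held a match, and none was found in those of Tlr13, Tlr5 and Tlr9, in the second Tlr6 window or in either Tlr1 window.

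The full glucocorticoid element was in none of the member windows and in 0.00913% of all windows, and the full cAMP element in none and in 1.55%. The single arm of the first was in the Tlr13 window (16.1% of all windows) and the arm of the second in the Tlr13 window and the second Tlr6 window (17.8%). The PU.1 core, bound by a master regulator of myeloid cells, was in the windows of Tlr1, Tlr9 and Tlr13 (10.6% of all windows). The interferon response core occurred at overlapping positions in the first Tlr6 window (2.98%) and the AP-1 element in that of Tlr9 (6.75%). A match describes letters and is not a measured binding site.

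The other receptors of the family, Tlr4, Tlr11 and Tlr12, were set beside the members. Tlr4, the receptor for lipopolysaccharide, was at 8.46 and 8.74 on the Combo arrays, against 6.94 and 6.94 on the vehicle arrays, a difference of 1.66 or 3.16-fold (limma adjusted p = 0.215). Tlr12, which binds a protein of protozoan parasites, was at 4.16 and 3.93 with Combo, against 3.80 and 3.83 with vehicle, and was within the background range on all arrays. So was Tlr11, named only to complete the family, at 4.92 and 4.58 with Combo, against 4.57 and 4.85 with vehicle. Of the 3 receptors, Tlr4 alone had an unadjusted limma p under 0.05.

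Co-receptors of the surface receptors and related proteins differed in both directions. Of 7 measured, 2 were higher and 2 lower at an unadjusted limma p under 0.05 (2.66% and 2.65% of all genes), with a median of -0.23. The same shares stand beside the counts of the lists that follow. The lists were chosen with earlier results known, so nothing is read from those counts. Cd14, which passes lipopeptides to TLR2 and lipopolysaccharide to TLR4, was at 9.31 and 9.39 on the Combo arrays, against 7.10 and 6.75 on the vehicle arrays (difference 2.43, limma adjusted p = 0.14). Cd36, a scavenger receptor that helps TLR2 with TLR6 sense diacylated ligands, was at 8.18 and 8.59 with Combo, against 6.52 and 6.36 with vehicle (difference 1.95, limma adjusted p = 0.23). Cd180, a relative of TLR4 found mainly on B cells and some myeloid cells, was at 4.46 and 5.09 with Combo, against 6.28 and 6.39 with vehicle (difference -1.56, limma adjusted p = 0.46). The other one that was lower was Clec7a, the beta-glucan receptor that works with TLR2, at 6.11 and 10.06 on the Combo arrays, far apart, against 11.40 and 12.15 on the vehicle arrays. Its difference of -3.69 (SE 1.33, interval -7.20 to -0.18, limma adjusted p = 0.89) was the lowest of the 30142 genes. It was -5.29 in number 1 and -2.09 in number 2. Clec7a was named after its values were seen, because it is 1 of 2.

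Adaptors and kinases downstream showed smaller differences, from -0.61 to 0.50. Of 19 measured genes, 1 was higher and 1 lower at an unadjusted limma p under 0.05, with a median of -0.11. Myd88, the adaptor of every member receptor except Tlr3, was at 10.04 and 9.81 on the Combo arrays, against 10.31 and 10.50 on the vehicle arrays, 1.40-fold lower (limma adjusted p = 0.845). Tbk1, a kinase that activates interferon regulatory factors, was at 8.87 and 8.84 with Combo, against 8.30 and 8.41 with vehicle (difference 0.50, limma adjusted p = 0.78). Groups of both genes did not overlap.

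The proteins that fold, carry or cleave the endosomal receptors, or process their ligands, included 18 measured genes with a median of -0.17, of which 1 was higher and 2 lower at an unadjusted limma p under 0.05. Ctsl, a lysosomal protease that cuts the ectodomains of endosomal receptors, was at 8.31 and 8.42 on the Combo arrays, against 7.28 and 7.16 on the vehicle arrays, 2.20-fold higher (limma adjusted p = 0.33). Slc29a3, a lysosomal nucleoside transporter, was at 7.29 and 7.60 with Combo, against 8.07 and 7.93 with vehicle (difference -0.55, limma adjusted p = 0.81). Sdcbp, the scaffold syntenin-1 that restrains TLR7 through UNC93B1, was at 10.37 and 10.65 with Combo, against 10.89 and 11.10 with vehicle (difference -0.48, limma adjusted p = 0.88). The receptor-folding chaperones Hsp90b1 and Cnpy3, named for their role, differed by -0.08 and -0.14 with overlapping groups.

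Negative regulators had a median of 0.25. Of 13 measured, 4 were higher and 1 lower at an unadjusted limma p under 0.05 (2.66% and 2.65% of all genes). Nfkbia, the inhibitor of NF-kB, was at 10.14 and 10.54 on the Combo arrays, against 8.36 and 8.50 on the vehicle arrays. Dusp1, a phosphatase of MAP kinases, was at 9.61 and 10.00 with Combo, against 7.91 and 7.50 with vehicle. Socs1, which restrains cytokine signalling, was at 5.67 and 5.86 with Combo, against 5.01 and 5.08 with vehicle. The first and second of these are also known glucocorticoid targets, but no array carried 1 drug alone, so the parts of the drugs cannot be told apart. Limma's adjusted p was 0.23, 0.28 and 0.58.

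Genes that receptor signalling is known to induce differed in both directions. Of 24 measured, 4 were higher and 1 lower at an unadjusted limma p under 0.05, with a median of 0.06. The neutrophil chemokine Cxcl2 was at 8.91 and 10.02 on the Combo arrays, against 4.65 and 4.72 on the vehicle arrays (difference 4.78, limma adjusted p = 0.17). Ptgs2, which makes prostaglandins, was at 6.93 and 6.84 with Combo, against 5.30 and 5.06 with vehicle, and the cytokine Tnf at 5.57 and 5.41 with Combo, against 6.65 and 6.55 with vehicle (limma adjusted p = 0.20 and 0.34). Nucleic acid sensors of the cytosol, a comparison group, had a median of -0.02 over 9 genes, with 0 higher and 1 lower. The lower one was the adaptor Mavs (difference -0.56, limma adjusted p = 0.78). Sting1, at 7.04 and 9.01 with Combo, against 8.47 and 10.59 with vehicle, differed by -1.51 with overlapping groups (limma adjusted p = 0.95). Within the replicate numbers it differed by -1.43 and -1.58. In this list replicate 1 was above replicate 2 by a median of 2.88 on the Combo arrays and 2.15 on the vehicle arrays, while for Sting1 it was below in both groups. A gene with so large a split between replicate numbers could hardly be called, so the counts say little about the drugs. The same holds for interferon-stimulated genes among the response genes, and so for part of that list's count. Isg15, for example, was at 10.79 and 6.67 with Combo, against 10.96 and 6.41 with vehicle.

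**Figure D4:**
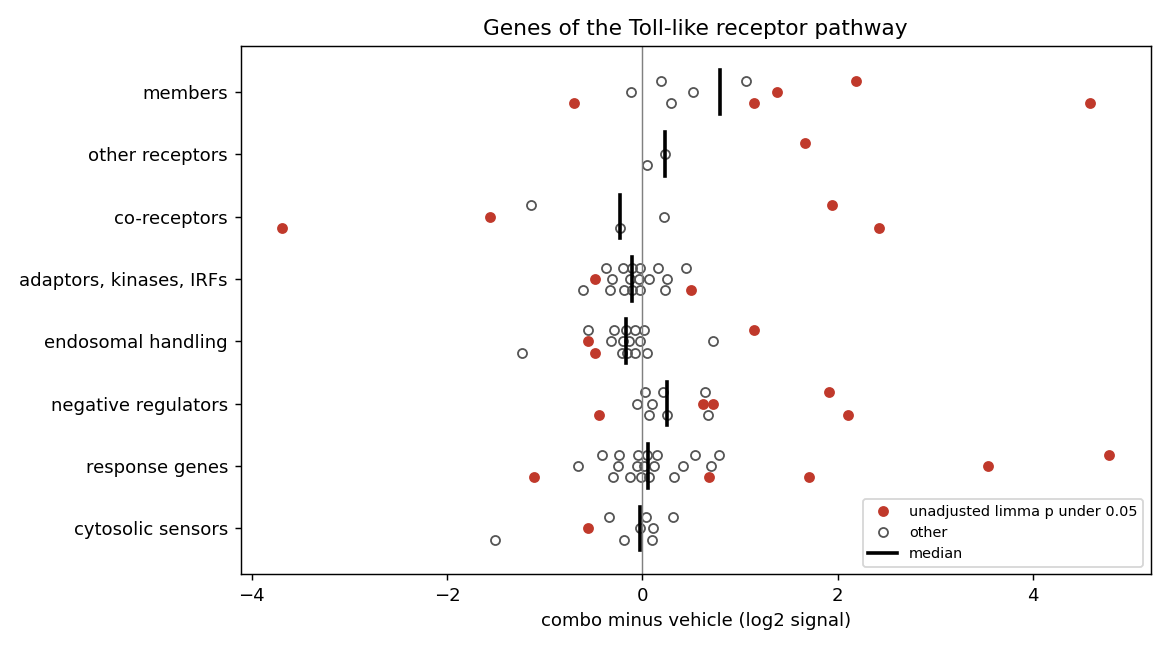
Differences between Combo and vehicle (log2 signal) of single genes in the members and in 7 lists of pathway genes. Filled circles have an unadjusted limma p under 0.05, and black bars are list medians. The medians ran from -0.23 for the co-receptors to 0.79 for the members.

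The replicate numbers differed in genes that bear on the family. In 7 interferon-stimulated genes taken from the lists after their values were seen (Irf7, Isg15, Ifit1, Ifit3, Rsad2, Mx1 and Oasl1), replicate 1 was above replicate 2 by 1.25 to 6.18 on the Combo arrays and by 0.45 to 7.63 on the vehicle arrays. Between Combo and vehicle they differed by -0.41 to 0.71. Tlr3 and Tlr7 are known targets of interferon. Tlr3 was higher in replicate 1, by 0.87 on the Combo arrays and 0.35 on the vehicle arrays. Tlr7 was higher in replicate 1 by 1.07 on the Combo arrays and lower by 0.57 on the vehicle arrays. Tlr8 differed between the numbers by -0.04 on the Combo arrays and -0.19 on the vehicle arrays. The part of interferon in the differences between the numbers was not tested.

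**Figure D5:**
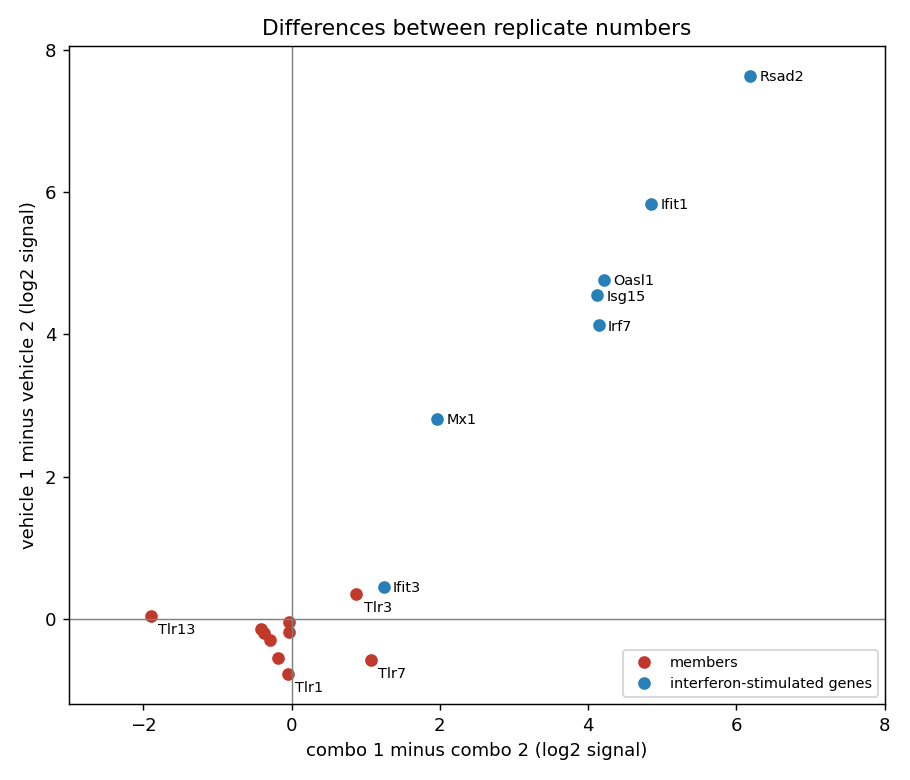
Difference between replicate 1 and replicate 2 (log2 signal) on the Combo arrays (horizontal) and on the vehicle arrays (vertical), for the members (red) and 7 interferon-stimulated genes (blue). The interferon-stimulated genes reached 6.18 and 7.63, while the members stayed between -1.90 and 1.07 on the horizontal axis and between -0.78 and 0.35 on the vertical axis.

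Markers of cell types that carry these receptors were read beside the members. Neutrophil markers averaged 10.17 and 8.48 on the Combo arrays and 9.70 and 7.57 on the vehicle arrays, with 2 of 11 higher and 0 lower at an unadjusted limma p under 0.05 (Mmp8 and Cxcr2). The replicate numbers differed more in this list than the groups did. Monocyte and macrophage markers averaged 8.21 and 8.20 on the Combo arrays and 8.21 and 8.48 on the vehicle arrays, with 1 of 8 higher (F13a1) and 3 lower (Csf1r, Ccr2 and Adgre1). Markers of plasmacytoid dendritic cells, which carry much Tlr7 and Tlr9, averaged 6.64 and 6.24 with Combo, against 6.78 and 6.51 with vehicle, with 0 of 8 higher and 1 lower (Irf8). Conventional dendritic markers averaged 5.07 and 5.07 with Combo, against 5.53 and 5.74 with vehicle, with 0 of 7 higher and 2 lower (Batf3 and Cd209a), and B cell markers 4.88 and 4.89 with Combo, against 4.90 and 5.37 with vehicle, with 0 of 7 higher and 2 lower (Ebf1 and Blnk). Their part in the differences of the members was not tested. Stem and progenitor markers averaged 7.58 and 7.67 with Combo, against 7.57 and 7.87 with vehicle, with 0 of 6 on either side. T and NK cell markers also had 0 of 7 on either side, erythroid markers 0 of 3, platelet markers 1 of 4 higher (Ppbp) and mast cell and basophil markers 1 of 5 lower (Ms4a2).

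The 6 protein-coding genes whose pattern lay nearest to that of Tlr8 over the 4 arrays, by Euclidean distance after subtracting each gene's mean, were Ccr1 (distance 0.37), Havcr2 (0.62), Pdcd1 (0.68), Ms4a4a (0.73), Cxcl2 (0.78) and Cxcr2 (0.83). Ccr1, a receptor of CC chemokines, was at 9.46 and 9.95 on the Combo arrays, against 4.80 and 5.21 on the vehicle arrays. Havcr2, the inhibitory receptor TIM-3, was at 10.03 and 10.81 with Combo, against 5.48 and 5.55 with vehicle, and Pdcd1, which encodes PD-1, at 9.33 and 9.94 with Combo, against 5.42 and 4.85 with vehicle. Ms4a4a, a membrane protein of macrophages, was at 9.85 and 9.21 with Combo, against 5.39 and 5.60 with vehicle. With 4 arrays in 2 groups, likeness rests mainly on the size of the group difference.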

How the data were processed

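RNA of 4 samples was measured on 1 array each. Per the labels' protocols, RNA was isolated with PicoPure columns and 10 ng went into the GeneChip WT Pico labelling reaction. The authors deposited log2 values; the submitters' processing notes name RMA and the Transcriptome Analysis Console. Their versions, and the genome build, were not given in the sources used here. Because RMA gives all arrays about the same distribution, a global change of RNA content is not visible. Of 72688 rows, 6732 control rows were left out by their identifiers. Of 65956 features, 30604 had 1 gene symbol in the platform annotation (symbols updated through Entrez identifiers with RefSeq GRCm38.p6), which gave 30142 genes. The 355 genes with several features took the one with the highest mean.

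The test was limma 3.58.1 (R 4.3.3; lmFit, eBayes), two-sided, on every feature, with no covariate beside group, and Benjamini-Hochberg adjustment, threshold 0.05. Residual degrees of freedom were 2 and the prior added 2.59. SEs and 95% intervals are limma's. An exact permutation test of 2 against 2 arrays cannot reach 0.05, so none was run. On simulated data of these 65956 features (10 simulations of 200 changed features for this comparison), features changed by 1 (log2) were called in 0.4% of cases, those changed by 2 in 38.4%, by 3 in 77.8% and by 5 in 93.6%. Each simulation also called 4.8 features, on average, that had been given no change. The simulated noise was independent between arrays, with no spread shared by replicate number, so these rates may not hold for the real arrays. On those Tlr8, at a difference of 4.58, was called. Ppbp, at 5.52, and Cxcl2, at 4.78, were not, with a limma adjusted p of 0.13 and 0.17. The members, the gene lists and the alternatives were chosen with earlier results of these data known. From each pathway list, the named genes are up to 3 with the smallest unadjusted limma p among those under 0.05, or the 2 smallest where fewer than 2 were under it. Genes named beyond this are marked as such or are cell type markers. Other settings tried were a replicate block, an intensity trend, a robust prior, filters on dim features, a second quantile normalization, arrays centred on their medians, control rows kept, the mean of all features of a gene, and each array left out.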

Additional observations from a re-analysis of the deposited data

How the results depend on the processing

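The difference itself could change only with a second quantile normalization, centred arrays or an array left out, since the other settings return the same estimate. There the member receptors kept their direction, except Tlr3 (-0.24 to 0.63 without 1 array) and Tlr9 (-0.33 to 0.089). Both turned without Combo 1. No alternative moved another member across limma's threshold, while Tlr8 lost its call in 9 of its 13 alternatives, at 4.49 to 4.68. It kept the call with a replicate block, a robust prior and centred arrays. The remaining alternative, the mean of all features of a gene, had no test and, with 1 probe set, only repeats the reported estimate. Tlr5 could not be fitted with features above the median signal, since it is too dim. Without Tlr5, the median difference there was 1.06, and without 1 array it lay between 0.54 and 1.13. Within number 1 it was 1.05 and within number 2 it was 0.27.

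Over all features the calls numbered 2 in the reported fit. With the replicate number as a block, which the labels do not say marks a shared source, 19 features passed and Tlr8 kept its call. Deviations of same-numbered arrays from their group means correlated at 0.33 over features, and with 2 pairs this does not settle a pairing. Calls numbered 0 with an intensity trend, with either filter on dim features, after a second quantile normalization, with control rows kept and without any 1 array, and 2 with a robust prior or centred arrays. The cause was not tested, except that the fits without 1 array have fewer degrees of freedom. At an unadjusted limma p under 0.05, 802 genes were higher and 798 lower in the reported fit. Without 1 array, members at an unadjusted limma p under 0.05 numbered 3 to 5 higher (1.73% to 3.45% of all genes) and 0 to 1 lower (1.97% to 2.53%). Groups fail to overlap more often with 2 arrays against 1. There, members with all Combo arrays above all vehicle arrays numbered 7 to 8 (33.2% to 38.5% of all genes), and those with all below 1 to 2 (29.6% to 33.8%). With 2 arrays per group and no detection calls, differences near background are limited by the signal.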
